A study of Mus musculus with 6 samples.

Results

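Cartilage and mineralisation genes were followed through the cell classes of the mouse aortic root, to separate what valve or chondrocyte-like cells contribute from what modulated smooth muscle cells (SMC) contribute. The members were a fixed list of 10 genes out of 18687 genes with at least 1 unique molecular identifier (UMI, a tag that counts one captured RNA molecule) in any library. They are the transcription factors Sox9, Sox5, Sox6 and Runx2, the cartilage matrix genes Acan, Comp and Chad, the secreted factor Cytl1, and the phosphate enzymes Alpl and Enpp1. The genes were listed by name and not by a threshold on a measured value, with earlier results of these data known.

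Single-cell RNA sequencing (10x Chromium, 3′ ends, version 3 chemistry) was run on cells from aortic roots of male mice 24 weeks of age, 4 animals combined per group. The groups were littermate controls, Marfan mice carrying the Fbn1 C1041G/+ missense allele of fibrillin-1, and Marfan mice that also carried a floxed Klf4 allele, in which deletion of Klf4 in SMC was induced according to the series' title and design text. The aortic root was digested with Liberase and elastase, and cells were sorted by flow cytometry into tdTomato-positive cells, the SMC lineage, and tdTomato-negative cells. The recombinase that switches on tdTomato and its promoter are not named in the labels used here, and the sort therefore defines the lineage only through the reporter. That gave 6 libraries, 1 for each genotype and sort fraction, so no difference between genotypes has a replicate check and no test was possible. Every interval below is a 95% interval that covers counting error only, and "higher" and "lower" describe the libraries compared.

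Endochondral cartilage forms when Sox9, helped by Sox5 and Sox6, switches on the genes of the cartilage matrix, and Runx2 drives the later passage towards mineralised tissue and bone. Heart valves use much of the same programme: their interstitial cells express Sox9 and lay down proteoglycans and cartilage proteins. Mineral deposition in the arterial wall is set in part by pyrophosphate, an inhibitor that Enpp1 makes and Alpl destroys. Modulated SMC are SMC that have lost part of their contractile programme and express matrix genes, a state well known in aneurysm of the aortic root.

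The libraries held 47750360 to 95250397 UMIs. After filtering, 4347 to 10929 cells per library remained, with a median of 9881 to 12858 UMIs in the 5 deeper libraries but 2143 UMIs in the Marfan lineage-positive library. Cells were clustered without the 10 members, and 13 of 18 clusters were named from markers that did not include them. The reporter transcript stood at 227 to 414 counts per 1000000 UMIs (CPM) in the lineage-positive libraries and at 2.55 to 5.36 CPM in the lineage-negative ones. Among the lineage-positive libraries Klf4, counted at the 3′ end, ran from 30.6 CPM in control through 46.6 CPM in Marfan to 120.3 CPM under the Klf4-floxed label. A 3′ tag outside a deleted segment does not check a floxed allele, so these samples are called by their label throughout. Pairs of libraries shared at most 0.671% of their cell barcodes.

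The comparisons rest on 3 cell populations. The SMC-like clusters of the lineage-positive libraries held 4949 control cells, 10524 Marfan cells and 5665 cells of the library labelled Klf4-floxed. One of those clusters, led by Timp4, Nrgn, Fetub, Mia and Mgp, was the modulated SMC-like cluster, with 166, 1110 and 1221 cells. It supplied 3.47%, 20.9% and 24.2% of the UMIs of the SMC class. The other SMC-like clusters are called by a leading gene, Optc, Ptprz1 and Tnnt2, except for a shallow cluster that held 5731 Marfan cells at a median of 1346 UMIs but 101 control cells and 197 of the library labelled Klf4-floxed. The valve interstitial or chondrocyte-like cluster, called valve-like here, held 272, 403 and 273 lineage-negative cells. Its naming rested on 19 markers outside the member list, whose summed level was 3584, 3129.5 and 3496 CPM there, against 300.1, 127 and 124 CPM in modulated SMC-like cells. Contractile SMC markers separated the classes in the opposite direction, at 18317 to 21944 CPM in modulated SMC-like cells and 1399 to 1900.1 CPM in valve-like cells. The 10 markers used for modulated SMC did not, at 2541 to 7539 CPM and 6276 to 8847 CPM. Of the valve markers Cnmd, Matn3 and Scrg1 were at 0 in the modulated SMC-like cells of all 3 libraries. The collagen Col2a1, which defines cartilage, was seen in 6.62% to 10.99% of valve-like cells, while fibromodulin (Fmod) was seen in 80.1% to 87.9%. The cluster is thus mostly valve interstitial in its markers and holds few cells with type II collagen RNA. Modulated SMC-like and valve-like cells came from different sort fractions, and class and library cannot be told apart in their comparison. The 26, 53 and 52 modulated SMC-like cells of the lineage-negative libraries, in which the reporter was at 0 to 8.46 CPM, are therefore given beside it.

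Sequences before the gene start are shown for the 4 matrix, secreted and enzyme genes among the members that have a single start in the RefSeq table and whose levels the results below describe. All come from RefSeq on GRCm38.p6, the build of the files (mm10). Each run is the 250 bases before the RefSeq start, 5′ to 3′ on the gene's strand, at chr7:79052976-79053225 (plus strand) for Acan, chr11:94564797-94565046 (plus) for Chad, chr5:37735269-37735518 (plus) for Cytl1 and chr10:24712160-24712409 (minus) for Enpp1. Capitals mark matches on either strand to CCACCC, the core bound by KLF-type zinc fingers, to TGTGGT, the core bound by RUNX factors, to AACAAT, the core bound by SOX factors, or to TATAAA, the TATA box.
Acan: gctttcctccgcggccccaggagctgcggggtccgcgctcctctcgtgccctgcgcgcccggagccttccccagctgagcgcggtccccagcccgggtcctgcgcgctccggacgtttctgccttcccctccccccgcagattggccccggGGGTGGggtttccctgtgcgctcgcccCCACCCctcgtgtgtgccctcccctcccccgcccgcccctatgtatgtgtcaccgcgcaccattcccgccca
Chad: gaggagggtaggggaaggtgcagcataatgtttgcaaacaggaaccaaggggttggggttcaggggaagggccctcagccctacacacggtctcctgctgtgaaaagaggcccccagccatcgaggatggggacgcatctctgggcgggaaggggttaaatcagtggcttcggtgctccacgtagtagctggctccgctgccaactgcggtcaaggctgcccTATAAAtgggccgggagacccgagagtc
Cytl1: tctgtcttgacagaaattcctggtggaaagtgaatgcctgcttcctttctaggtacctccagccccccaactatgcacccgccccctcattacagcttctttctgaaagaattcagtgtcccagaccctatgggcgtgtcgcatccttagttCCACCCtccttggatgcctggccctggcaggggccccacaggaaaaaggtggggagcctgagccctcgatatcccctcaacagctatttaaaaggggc
Enpp1: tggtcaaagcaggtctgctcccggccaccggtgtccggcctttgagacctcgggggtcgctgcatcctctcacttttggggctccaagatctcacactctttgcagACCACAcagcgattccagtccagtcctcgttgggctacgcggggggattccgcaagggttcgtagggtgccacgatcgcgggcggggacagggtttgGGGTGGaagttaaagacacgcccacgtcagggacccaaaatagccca
The KLF letters occurred 2 times before Acan, and 1 time each before Cytl1 and Enpp1, and are found in 28.1% of 32851 promoters of this length. The TATA letters stood before Chad alone among the 4 (12.4% of promoters), 28 to 23 bases before its start. The RUNX letters stood before Enpp1 alone (14.0% of promoters), and the SOX letters (9.42% of promoters) matched in none of the 4 windows. These matches describe letters and say nothing of binding. The Acan start used by RefSeq did not fall inside an annotated GENCODE transcript, so its window may not hold the start used in these cells.

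**Figure D1:**
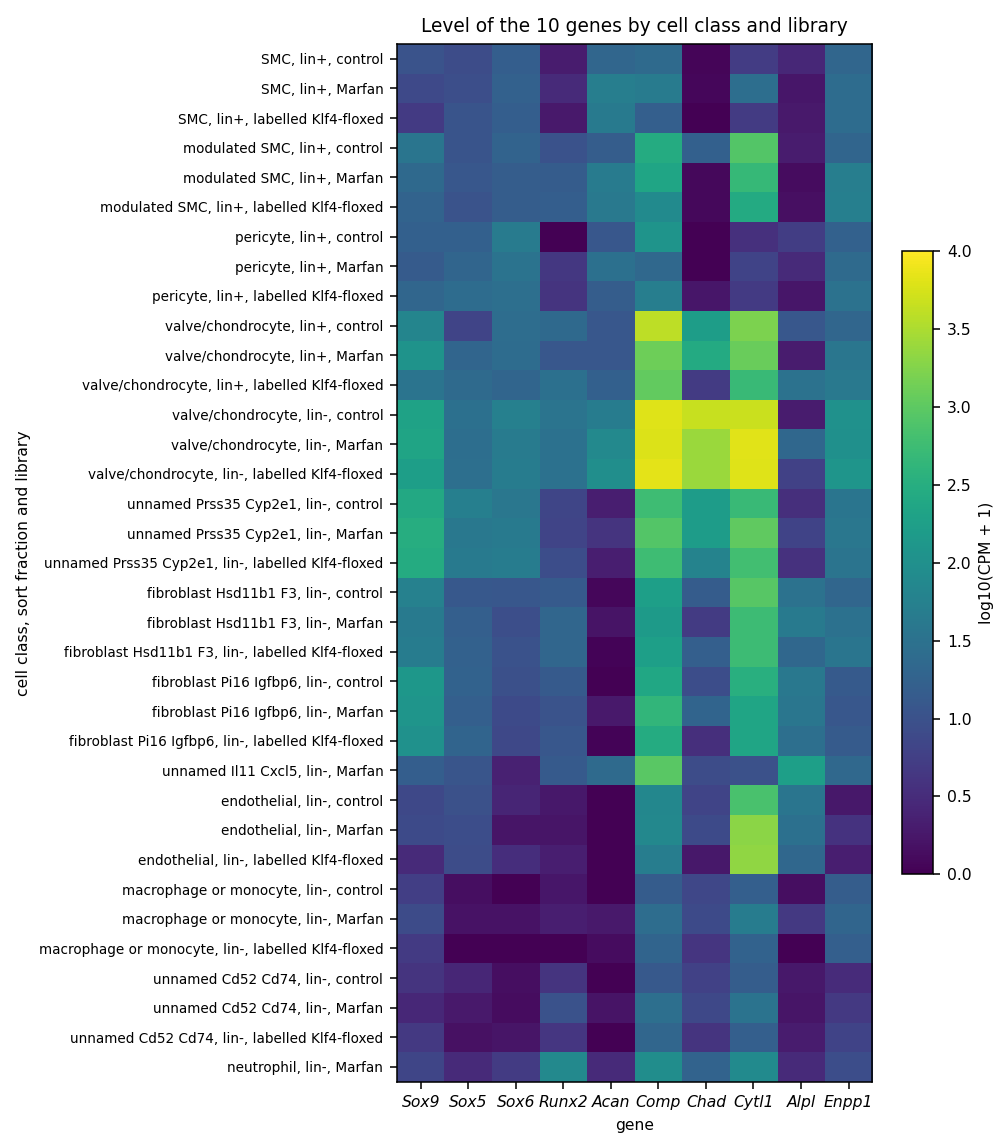
Level of each of the 10 genes in each cell class and library, as log10(CPM + 1) of summed UMIs. Comp, Chad and Cytl1 were highest in the valve-like class, Sox9 in the unnamed Prss35 cluster and Alpl in the unnamed Il11 Cxcl5 cluster.

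The order of the cell classes differed from gene to gene, as the map of levels by class shows. Among classes with at least 50 cells in a library, the valve-like class was the highest for Comp, Chad, Cytl1, Acan and Enpp1 in all 3 genotypes. For Sox9 and Sox5 the highest class was instead an unnamed lineage-negative cluster led by Prss35 and Cyp2e1, which carried valve markers but also fibroblast genes among its leading genes. Runx2 stood highest in neutrophil-like cells of the Marfan library (75.0 CPM), and Alpl in an unnamed cluster led by Il11 and Cxcl5 (183 CPM), both found in that library alone. Modulated SMC-like cells were the top class for none of the 10 genes.

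Sox9, the factor on which cartilage formation depends (chr11:112782224-112787760, plus strand), was abundant in valve-like cells and low in SMC. In valve-like cells it stood at 203, 213 and 171 CPM in control, Marfan and the library labelled Klf4-floxed, and in modulated SMC-like cells at 35.5, 22.7 and 18.0 CPM. The other SMC-like clusters had 9.48, 6.51 and 3.73 CPM. The populations therefore lay in 3 separate ranges that did not overlap, with modulated SMC-like cells between the other SMC and the valve-like cells. Within each SMC population the control library was the highest and the library labelled Klf4-floxed the lowest. The Prss35 cluster reached 261 to 306 CPM, above the valve-like class, and the Pi16 fibroblast-like cells had 103 to 132 CPM.

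Sox5 and Sox6, the partners of Sox9 on cartilage enhancers, differed far less between populations. Sox5 (chr6:143828425-144781977, minus strand) stood at 28.8, 27.3 and 28.0 CPM in valve-like cells, at 9.76, 11.2 and 9.37 CPM in modulated SMC-like cells and at 7.66, 8.06 and 9.92 CPM in the other SMC. Sox6 (chr7:115470872-116038796, minus strand) stood at 53.8, 44.7 and 46.4 CPM, then 17.5, 14.1 and 13.9 CPM, then 14.5, 16.4 and 14.8 CPM in the same order. Modulated and other SMC-like cells overlapped for both genes, so neither marked the modulated state. Pericyte-like cells of the lineage-positive libraries exceeded both SMC populations, at 15.7 to 24.8 CPM for Sox5 and 27.8 to 44.6 CPM for Sox6.

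Runx2, the master factor of bone formation (chr17:44495987-44814797, minus strand), was the transcription factor that separated modulated from other SMC by the widest ratio. It stood at 9.25, 13.8 and 14.7 CPM in modulated SMC-like cells and at 1.03, 2.04 and 0.907 CPM in the other SMC. Valve-like cells had 33.6, 29.9 and 30.6 CPM. In the Marfan library the low level outside the modulated cluster was not even: the shallow SMC cluster held 6.42 CPM, while the Optc and Ptprz1 clusters held 0.631 and 0.512 CPM. Runx2 overlaps Supt3 on the opposite strand, and the strand setting of the counting is not given in the sources used here.

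**Figure D2:**
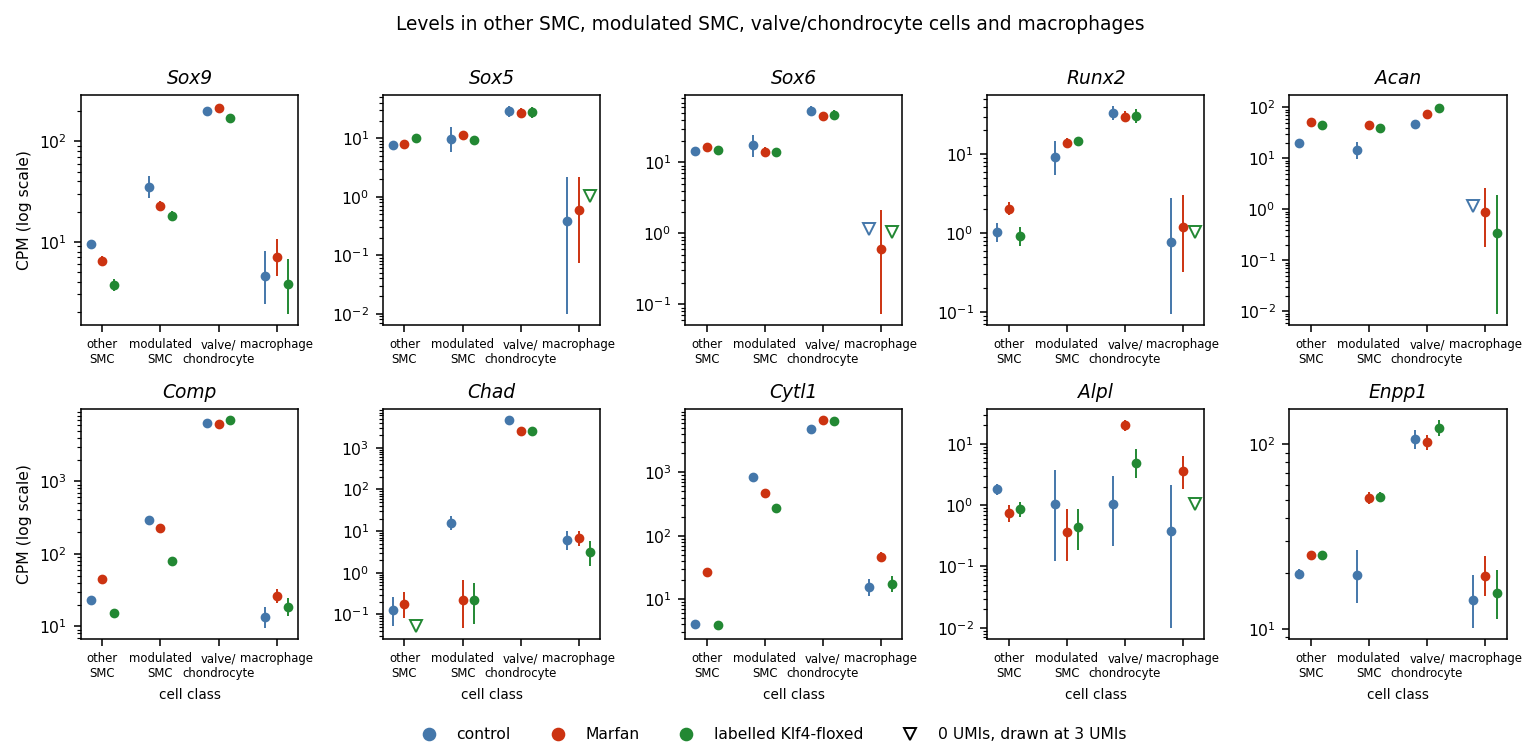
Level of each gene (CPM, log axis) in other SMC, modulated SMC-like, valve-like and macrophage-like cells, 1 point per library with exact Poisson 95% intervals. Open triangles mark 0 UMIs, drawn at 3 UMIs. Sox9, Runx2, Comp and Cytl1 step up from other SMC to modulated SMC to valve-like cells, while Acan overlaps between the first 2 populations.

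Acan encodes aggrecan, the large proteoglycan of cartilage (chr7:79053483-79115099, plus strand), and it behaved unlike the other matrix genes. It stood at 20.1, 51.3 and 44.1 CPM in the other SMC-like clusters and at 14.4, 45.2 and 39.7 CPM in modulated SMC-like cells, so the modulated cells were not above the rest in any library. Valve-like cells had 46.5, 74.8 and 95.4 CPM. Acan RNA was thus present throughout the SMC lineage, whereas the fibroblast-like clusters of the lineage-negative libraries had at most 0.901 CPM and macrophage-like cells 0, 0.894 and 0.345 CPM. The Ptprz1 cluster held the most among SMC, at 45.9, 67.3 and 56.6 CPM, and the Tnnt2 cluster the least, at 6.17, 14.4 and 10.5 CPM.

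Comp, cartilage oligomeric matrix protein (chr8:70373558-70382066, plus strand), was chiefly a valve-like transcript. It stood at 6309, 6149 and 6946 CPM in valve-like cells, 291, 224 and 80.0 CPM in modulated SMC-like cells and 23.4, 45.7 and 15.5 CPM in the other SMC. The 3 populations did not overlap. Comp was also high in lineage-negative cells outside the valve-like class, at 934 CPM in the Il11 Cxcl5 cluster and 571 to 857 CPM in the Prss35 cluster. Macrophage-like cells, which should lack it, had 13.5, 26.2 and 18.6 CPM. Endothelial-like cells had 69.0, 73.5 and 48.4 CPM and the Marfan neutrophil-like cells 88.8 CPM, from 45 UMIs. The 80.0 CPM of the modulated cells labelled Klf4-floxed stood above the macrophage-like and endothelial-like values of every library and below the neutrophil-like value. Its interval overlapped those of the neutrophil-like cells and of the control and Marfan endothelial-like cells, but not that of the endothelial-like cells labelled Klf4-floxed. Which part of these levels is free RNA was not tested. No class that should lack Comp was large enough in the lineage-positive libraries, and their background was not measured.

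Chad, the collagen-binding matrix protein chondroadherin (chr11:94565047-94569127, plus strand), was scarcer still outside the valve-like class. It stood at 4617, 2483 and 2535 CPM in valve-like cells, against 15.9, 0.223 and 0.218 CPM in modulated SMC-like cells, which rest on 31, 3 and 4 UMIs. In the control library 24 of the 31 UMIs came from 1 cell, and the other 7 amount to 3.62 CPM. Macrophage-like cells had 3.11 to 6.85 CPM, more than the Marfan and Klf4-floxed-labelled modulated cells. For every 100 Comp UMIs there were 73.2, 40.4 and 36.5 Chad UMIs in valve-like cells but 5.48, 0.10 and 0.27 in modulated SMC-like cells. Macrophage-like cells had 16.7 to 45.7 Chad UMIs per 100 Comp UMIs. Chad was thus scarcer beside Comp in modulated SMC-like cells than in either of these lineage-negative classes, and the proportion in the free RNA of the lineage-positive libraries was not measured. Chad overlaps Acsf2 on the opposite strand.

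Cytl1, a small secreted protein known from cartilage and its progenitors (chr5:37735519-37739820, plus strand), was high in valve-like cells and in modulated SMC-like cells. It stood at 4828, 6689 and 6479 CPM in valve-like cells and at 857, 481 and 275 CPM in modulated SMC-like cells. The other SMC had 4.10, 27.1 and 3.92 CPM, the widest step between modulated and other SMC of any member. Endothelial-like cells had 708, 1988 and 2185 CPM, second to the valve-like cells except in control. The Hsd11b1 fibroblast-like cells held 552 to 927 CPM, with the highest value in control, while pericyte-like cells had 2.62 to 5.45 CPM. Cytl1 thus marked modulated SMC within the SMC lineage but not across the aortic root.

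Alpl, tissue-nonspecific alkaline phosphatase (chr4:137741733-137796384, minus strand), was nearly absent from SMC. It stood at 1.03, 0.372 and 0.436 CPM in modulated SMC-like cells and at 1.83, 0.747 and 0.854 CPM in the other SMC. Valve-like cells had 1.04, 20.3 and 4.94 CPM, from 3, 99 and 15 UMIs, and 48 of the 99 Marfan UMIs came from 2 cells. The fibroblast-like and endothelial-like clusters of the lineage-negative libraries had more, at 20.5 to 41.5 CPM. The few lineage-positive cells of the Hsd11b1 fibroblast-like cluster had 19.6, 12.4 and 2.85 CPM, from 6, 6 and 2 UMIs.

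Enpp1, the enzyme that makes pyrophosphate from nucleotides (chr10:24637914-24712159, minus strand), was present in all 3 populations. It stood at 106, 102 and 122 CPM in valve-like cells. Modulated SMC-like cells had 19.5, 51.3 and 51.8 CPM, macrophage-like cells 14.2, 19.4 and 15.5 CPM, and the other SMC 19.8, 25.01 and 24.9 CPM. Control modulated cells matched the other SMC, while those of the Marfan library and the library labelled Klf4-floxed stood above every other SMC value. So in modulated SMC-like cells the pyrophosphate-making Enpp1 was present and the pyrophosphate-splitting Alpl was near 0 in all 3 libraries.

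Measured against the other SMC, modulated SMC-like cells were at least 1.5-fold higher, with at least 5 CPM in the higher population, for 5 of 9 members in control, 5 of 8 in Marfan and 5 of 8 in the library labelled Klf4-floxed, and lower for none. Over all genes the same rule gave 14.8%, 10.3% and 10.4% higher and 9.43%, 7.85% and 9.22% lower. Sox9, Runx2, Comp and Cytl1 were among the 5 in each library, joined by Chad in control and by Enpp1 in the other 2. Without the 1 control cell that held most of its Chad UMIs, an alternative chosen after the data were seen, Chad was under the level filter and 4 members were higher in control. The log2 ratios in the Marfan library were 1.80 (1.57 to 2.03) for Sox9, 2.76 (2.40 to 3.12) for Runx2, 2.29 (2.21 to 2.37) for Comp, 4.15 (4.07 to 4.24) for Cytl1 and 1.04 (0.90 to 1.17) for Enpp1. Runx2 was below 5 CPM outside the modulated cluster in all 3 libraries, Sox9 and Cytl1 in some of them and Chad in control, so those members could pass only by being higher. The median log2 ratio of the members that passed was 1.90, 1.42 and 1.66, against 0.01, -0.03 and -0.06 over all genes. Without the shallow SMC cluster, an alternative chosen after the data were seen, the Marfan ratios became 2.12 for Sox9, 3.65 for Runx2, 3.05 for Comp and 5.91 for Cytl1. The control Comp ratio of 3.63 became 1.40 to 2.65 under 6 of the alternatives that formed the clusters anew.

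**Figure D3:**
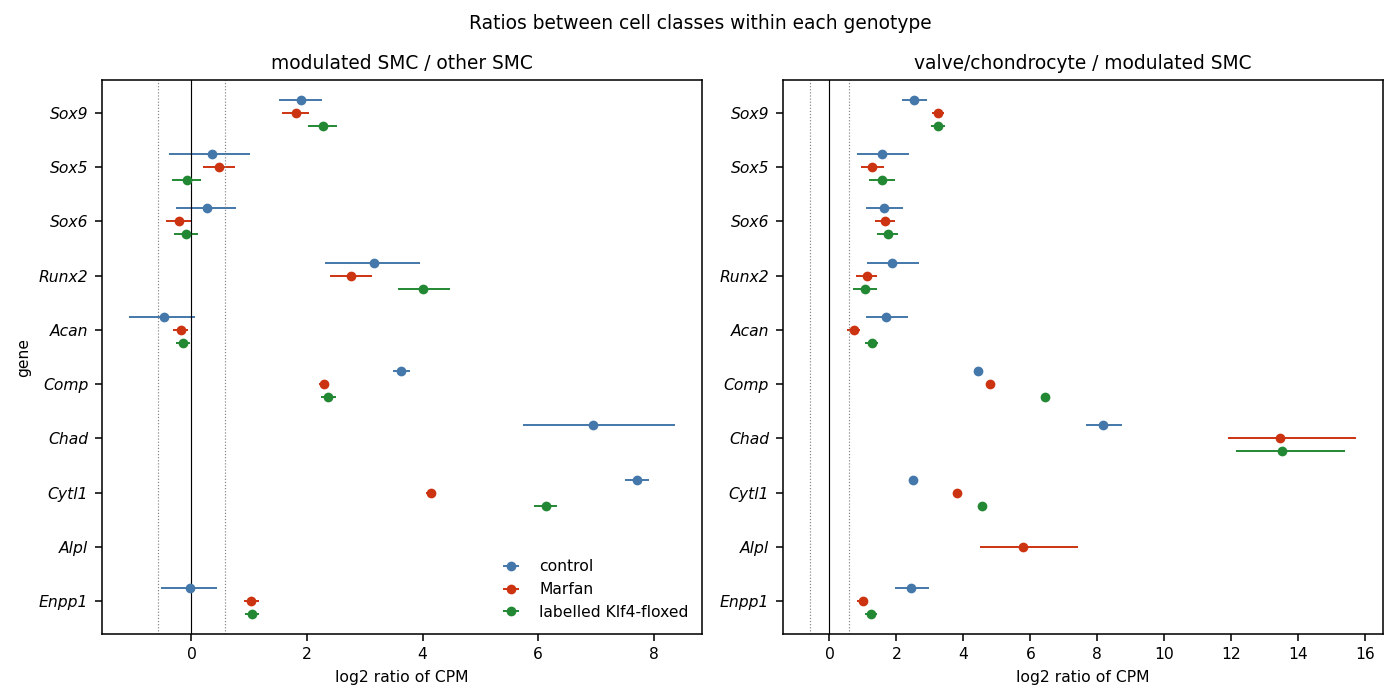
Log2 ratios of CPM for modulated against other SMC-like cells and for valve-like against modulated SMC-like cells, 1 point per library with exact 95% intervals. Dotted lines mark 1.5-fold. Cytl1 lies farthest right in the first panel in each library and Chad in the second.

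Valve-like cells exceeded modulated SMC-like cells for every member that passed the level filter: 9 of 9 in control, 10 of 10 in Marfan and 9 of 9 in the library labelled Klf4-floxed. Over all genes 21.4%, 20.4% and 19.4% were higher by the same rule, and 12.3%, 9.66% and 10.5% were lower. In the Marfan libraries the log2 ratio was 3.23 for Sox9, 1.28 for Sox5, 1.66 for Sox6 and 1.11 for Runx2, so the gap among transcription factors was widest for Sox9. For Comp it was 4.78, for Cytl1 3.80 and for Enpp1 0.99, while Acan differed least at 0.73 (0.54 to 0.92). The Chad ratio of 13.44 (11.89 to 15.72) rests on 3 UMIs in modulated SMC-like cells. Alpl, and Chad in Marfan and the library labelled Klf4-floxed, could pass the filter only through the valve-like cells. The Acan and Runx2 differences turned to the opposite sign in all 3 genotypes when cells above 5% mitochondrial UMIs were removed (Acan -0.87 and Runx2 -0.42 in Marfan), a setting under which a further cluster was named valve-like. A finer clustering, which did the same, turned Acan in all 3 genotypes as well. The Enpp1 ratio in Marfan was 0.17 and 0.13 under these settings, within 1.5-fold.

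The lineage-negative modulated SMC-like cells, though few, gave values within the same fractions as the valve-like cells. Their Comp was 125, 918 and 206 CPM and their Cytl1 1213, 599 and 966 CPM, below the valve-like cells of the same libraries in each case. Sox9 stood at 33.5, 77.6 and 32.1 CPM and Runx2 at 24.4, 19.7 and 17.5 CPM, again below the valve-like values. Chad was at 9.14, 5.64 and 19.0 CPM, from 3, 4 and 13 UMIs, against 3.11 to 6.85 CPM in macrophage-like cells. Acan was 39.6, 36.7 and 35.0 CPM and Enpp1 30.5, 50.8 and 56.9 CPM. These genes were thus lower in modulated SMC-like than in valve-like cells within the lineage-negative libraries too, although counting intervals overlapped for Runx2 in all 3 genotypes and for Acan in control.

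The valve-like cluster also held 35, 76 and 46 lineage-positive cells, and these differed from its lineage-negative cells. Their reporter level was 339.7, 373 and 223 CPM, as high as in SMC. Comp stood at 4043, 1320 and 1098 CPM and Cytl1 at 1611, 1225 and 506 CPM. Chad stood at 167, 274 and 3.91 CPM, but 252 of the 268 Marfan UMIs came from 1 cell. Col2a1 and Cnmd were at 0 UMIs, and interferon-response genes such as Iigp1, Gbp2 and Cxcl10 led these cells. Their values entered no comparison.

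At the level of single cells, most Comp and Cytl1 UMIs of the modulated cluster came from a minority of its cells. Cells with at least 10 Comp UMIs numbered 18, 69 and 35 and held 89.8%, 88.4% and 79.2% of the cluster's Comp. For Cytl1 such cells numbered 24, 145 and 110 and held 96.0%, 84.5% and 83.0%. For Acan such cells held at most 2.88% of the UMIs. A summed level of Comp or Cytl1 in modulated SMC-like cells therefore rests mostly on a minority of the cells. For Acan the limit of 10 UMIs cannot show how evenly the RNA is spread, because few cells can reach it at this level. In the Marfan library 607 Acan UMIs were counted over 1110 modulated cells. After the thinning described below, Acan was found in a smaller share of modulated cells than Cytl1 in each library. Against Comp the Acan share was smaller in control and Marfan but larger in the library labelled Klf4-floxed.

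After each cell was thinned to 2000 UMIs, a Comp UMI was found in 16.3%, 9.13% and 5.83% of modulated SMC-like cells and in 81.7%, 74.2% and 77.9% of valve-like cells. Cytl1 was found in 18.7%, 27.8% and 15.4% against 69.0%, 66.1% and 64.8%. In macrophage-like cells Comp was found in 2.74% to 5.59% and Cytl1 in 2.89% to 4.04%. In endothelial-like cells Comp was found in 13.8%, 12.9% and 9.90%, and in the Marfan neutrophil-like cells Comp was found in 13.9% and Cytl1 in 11.7%. The Comp shares of modulated SMC-like cells are therefore not read apart from the background of the other sort fraction. Other SMC of the same libraries had lower shares, with Comp in 2.74%, 4.50% and 1.99% and Cytl1 in 0.642%, 3.90% and 0.694%. Among modulated cells the Marfan Cytl1 share exceeded the control share although the control CPM was higher. No order between the genotypes is read from these values. Sox9 was found in 3.61%, 3.91% and 2.71% of modulated and 27.2%, 28.6% and 26.2% of valve-like cells, against 0% to 1.24% of macrophage-like cells. Enpp1 was found in 4.22%, 8.22% and 10.5% of modulated cells and in 3.83%, 4.73% and 4.58% of other SMC. Thinning left out 0, 113 and 3 modulated cells and 4, 11 and 6 valve-like cells. Unthinned, at median depths of 10770, 11819 and 13983 UMIs, the modulated shares were 24.1%, 23.0% and 18.2% for Comp and 29.5%, 44.4% and 35.5% for Cytl1, against 13.1% to 16.8% and 14.0% to 19.8% in macrophage-like cells at 8598 to 10698 UMIs. Acan was found after thinning in 2.41%, 8.83% and 7.55% of modulated cells and in 3.53%, 8.91% and 7.87% of other SMC, a class that lost 107, 5082 and 124 cells to thinning.

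Members were detected together in valve-like cells. After thinning, Chad was found in 16 of 16 cells, 75.6% and 76.5% of control, Marfan and Klf4-floxed-labelled valve-like cells with an Acan UMI and in 59.9%, 39.9% and 44.6% of those without. With a Comp UMI the Chad shares were 70.3%, 56.7% and 61.5%, and without one 26.5%, 5.9% and 3.4%. Acan and Chad thus met in the same valve-like cells. In modulated SMC-like cells Chad was found after thinning in 2 of 166, 1 of 997 and 0 of 1218 cells, too few for the same comparison.

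The genotype comparison within the whole SMC class put 4 of 7 members higher in Marfan than in control and none lower, against 3.55% higher and 2.75% lower over all genes. Cytl1 stood at 122 against 33.6 CPM (log2 ratio 1.86, 1.79 to 1.93), Comp at 83.0 against 32.7 CPM (1.34, 1.27 to 1.42), Acan at 50.01 against 19.9 CPM (1.33, 1.23 to 1.43) and Enpp1 at 30.5 against 19.8 CPM (0.63, 0.52 to 0.73). With each cell counted alike the Enpp1 ratio was 0.44, within 1.5-fold. Sox9, Sox5 and Sox6 lay within 1.5-fold, at log2 ratios of -0.07, 0.17 and 0.13. Runx2 was counted at 290 against 74 UMIs, or 4.51 against 1.32 CPM, under the level filter in both. The members' median was 0.63, against -0.08 over all genes. Depth moved with this comparison, with a median of 2033.5 UMIs per cell of the SMC class in Marfan against 11457 in control, and so did the share of modulated cells, and their part in each ratio was not tested beyond the cluster values below.

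**Figure D4:**
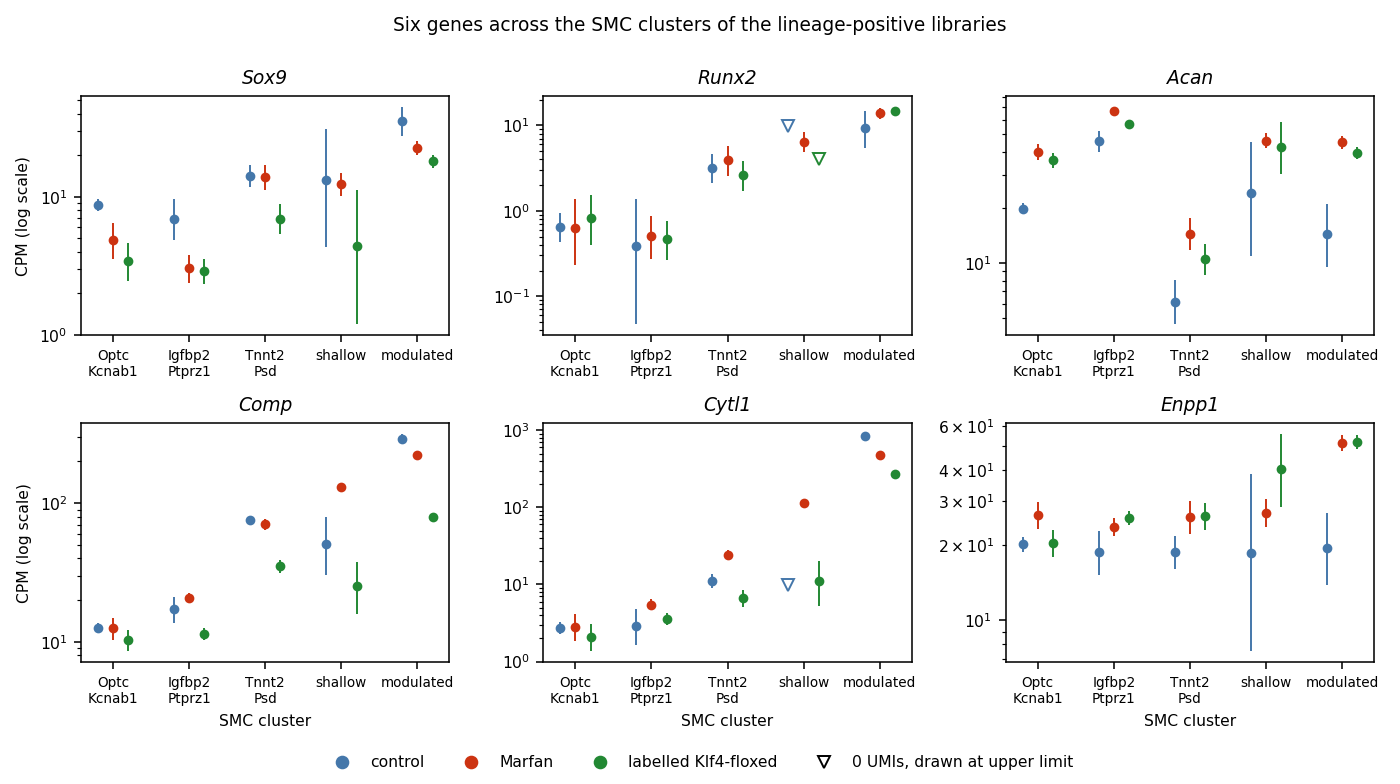
Level (CPM) of 6 genes in the 5 SMC-like clusters of each lineage-positive library, with exact Poisson 95% intervals. Open triangles mark 0 UMIs, drawn at the upper limit. In each cluster Acan is lowest in control, and Comp and Cytl1 are highest in the modulated cluster of every library.

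Splitting the SMC class into its 5 clusters separated 2 patterns. Acan was higher in the Marfan library than in control in every cluster: 40.3 against 19.8 CPM in the Optc cluster, 67.3 against 45.9 in the Ptprz1 cluster, 14.4 against 6.17 in the Tnnt2 cluster, 46.3 against 24.0 in the shallow cluster and 45.2 against 14.4 in the modulated cluster. The library labelled Klf4-floxed was also above control in each of them. In the shallow cluster the control value rests on 9 UMIs, and its interval overlapped those of both other libraries. Comp showed no such step inside the deeper contractile clusters, with 12.5 against 12.6 CPM in the Optc cluster, 20.8 against 17.2 in the Ptprz1 cluster and 70.3 against 75.1 in the Tnnt2 cluster, and it was lower in Marfan in the modulated cluster. Cytl1 was 2.84 against 2.73 CPM in the Optc cluster and lower in Marfan in the modulated cluster, at 481 against 857 CPM. In the other 2 deeper clusters Cytl1 was higher in Marfan, at 24.2 against 11.2 CPM in the Tnnt2 cluster and 5.48 against 2.89 CPM in the Ptprz1 cluster, where the intervals overlapped. The Acan difference was thus present in each cluster, and that of Cytl1 in some. Over the alternatives the class-wide log2 ratio ranged from 1.24 to 1.46 for Acan, from 0.76 to 2.23 for Comp and from 1.60 to 4.26 for Cytl1. The class-wide Comp and Cytl1 differences went together with the share of class UMIs from the modulated cluster, 20.9% in Marfan against 3.47% in control, and with the shallow cluster, in which Marfan cells had 132 CPM of Comp and 115 CPM of Cytl1.

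Within modulated SMC-like cells, Marfan stood at least 1.5-fold above control for Acan (log2 ratio 1.65, 1.10 to 2.25) and Enpp1 (1.39, 0.92 to 1.91) and below it for Sox9 (-0.64, -1.03 to -0.25), Cytl1 (-0.83, -0.91 to -0.75) and Chad (-6.16, -8.51 to -4.48), among 9 members. Over all genes 4.73% were higher and 10.5% lower. Chad passed the level filter through the 1 control cell described above. Without that cell it was under the filter, and its ratio became -4.02, while 6 alternatives that formed the clusters anew gave -4.53 to -3.80. The Acan, Enpp1, Sox9 and Chad directions were the same under each alternative tried, but Sox9 came within 1.5-fold with each cell counted alike (-0.53), with median-of-ratios scaling (-0.55) and with a minimum of 500 UMIs (-0.58). The Cytl1 direction was not: it became 1.33 with a minimum of 500 UMIs per cell and 0.82 with 2000. The control cluster is the smaller side of this comparison, with 166 cells here and 56 to 75 under the alternatives that formed the clusters anew. Fibroblast markers summed to 5186 CPM in these control cells against 1867 and 1782 CPM in the other 2 libraries, and valve markers to 300.1 against 127 and 124 CPM, and their part in the result was not tested. All 8 genes of the cartilage matrix list that passed the filter, a list described below, were lower in the Marfan cluster too, with a median log2 ratio of -0.99 against -0.11 over all genes.

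Among the members tested in SMC, the library labelled Klf4-floxed differed from the Marfan library by at least 1.5-fold in Comp and Cytl1. In the SMC class 2 of 7 members were lower and none higher, against 0.518% and 0.367% over all genes: Comp at 31.1 against 83.0 CPM (log2 ratio -1.41, -1.49 to -1.34) and Cytl1 at 69.6 against 122 CPM (-0.81, -0.86 to -0.76). Within modulated SMC-like cells the same pair was lower among 8 members, Comp at -1.48 (-1.58 to -1.39) and Cytl1 at -0.81, where 1.28% of all genes were lower and 0.992% higher. Comp was lower in each of the other 4 clusters as well, though in the Optc cluster the intervals of 10.3 and 12.5 CPM overlapped. Acan, Enpp1, Sox5 and Sox6 stayed within 1.5-fold in both comparisons. The Comp ratio ranged from -1.96 to -0.76 in the SMC class and from -2.30 to -0.95 in modulated cells over the alternatives. Depth moved with this comparison too, with a median of 13110 UMIs per cell of the SMC class against 2033.5 in Marfan. The shallow cluster held 197 cells labelled Klf4-floxed against 5731 Marfan cells. In modulated cells most Comp came from few cells. The 80.0 CPM labelled Klf4-floxed stood above the macrophage-like and endothelial-like cells of the lineage-negative libraries but below the Marfan neutrophil-like cells. What part depth, the shallow cluster, the few cells and free RNA had in the ratios was not tested.

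**Figure D5:**
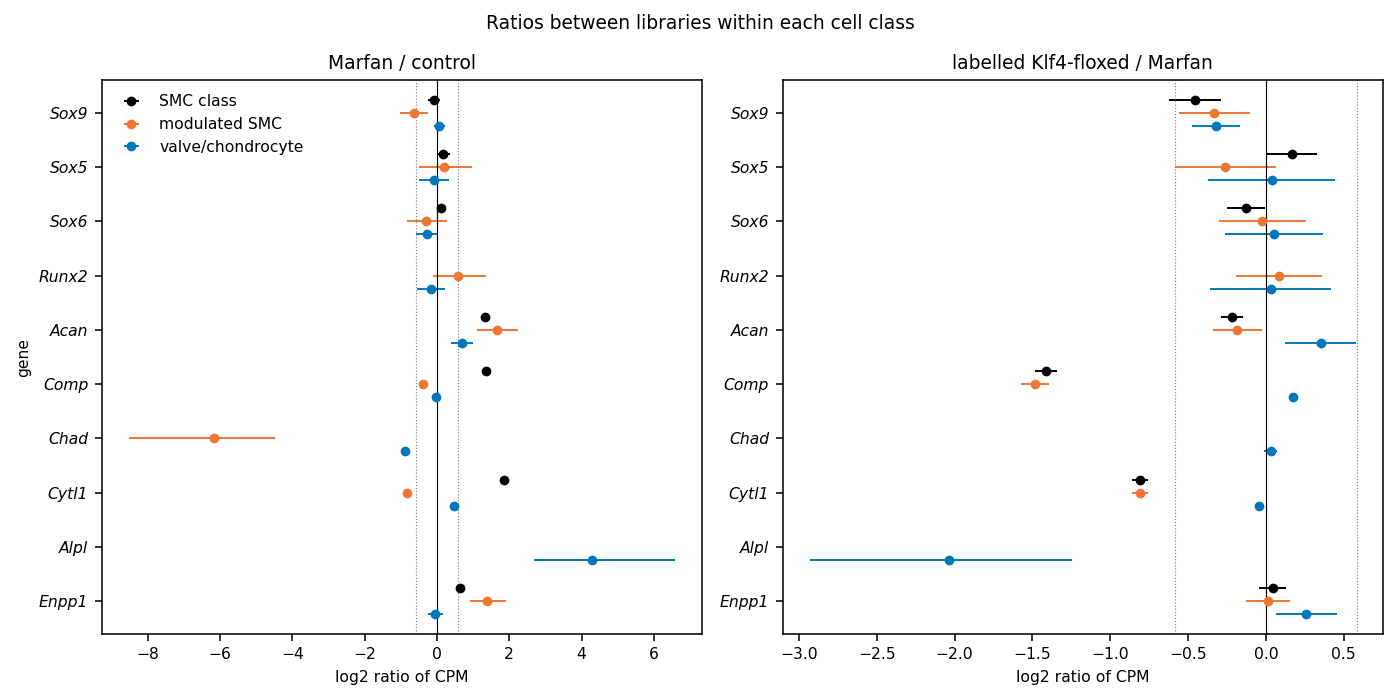
Log2 ratios of CPM of Marfan to control and of the Klf4-floxed-labelled library to Marfan, in the SMC class, modulated SMC-like cells and valve-like cells, with exact 95% intervals. Dotted lines mark 1.5-fold. Acan lies right of 1.5-fold for Marfan against control in all 3 populations, and Comp lies left of it for the second comparison in both SMC populations.

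Valve-like cells differed less between genotypes. Against control, 2 of 10 members were higher in Marfan, Acan (log2 ratio 0.69, 0.40 to 0.98) and Alpl (4.29, 2.70 to 6.59), and Chad was lower, at 2483 against 4617 CPM. Over all genes 5.58% were higher and 8.62% lower. Comp, Cytl1, Enpp1 and the 4 transcription factors lay within 1.5-fold. Against Marfan, the library labelled Klf4-floxed was lower for Alpl alone (-2.04, -2.93 to -1.25), where 5.93% of all genes were lower and 3.72% higher. Valve-like Alpl reached the level filter of 5 CPM only with the Marfan cells, at 20.3 CPM. Control cells (1.04 CPM) and those labelled Klf4-floxed (4.94 CPM) fell short of it. Alpl could thus pass only as higher against control and only as lower against Marfan. The Alpl ratios rest on the few cells described above, and the first of them became 1.70 with a 5% mitochondrial limit and 2.85 at the finer clustering. The Chad ratio of -0.89 became -0.43 at the finer clustering, within 1.5-fold. Macrophage markers summed to 194 CPM in the Marfan valve-like cells against 93.6 and 100.4 CPM, and their part was not tested.

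Other genes of the pathways were counted from 4 lists, none of which contains a member. The cartilage matrix list of 25 genes includes many genes that named the valve-like class, so its difference between classes is not independent. In Marfan 21 of the 21 genes tested were higher in valve-like than in modulated SMC-like cells, against 20.4% over all genes. The median log2 ratio was 6.92 against 0.16 over all genes, and the type XI collagen gene Col11a1 was at 7.89. Cilp, Ucma and Clec3a had 262, 155 and 152 UMIs in valve-like cells against 1 UMI each in modulated SMC-like cells. Between modulated and other SMC of the Marfan library, where 10.3% of all genes were higher and 7.85% lower, only 6 of the 25 reached 5 CPM. Of these 4 were higher, Fmod (2.37), Vit (1.64), Prelp (0.92) and Prg4 (0.75), and the hyaluronan-binding proteoglycan Vcan was lower (-0.73). The median was 0.83. In control 7 of 8 tested were higher and none lower, with a median of 2.76. The library labelled Klf4-floxed gave 3 of 5 higher and 1 lower, with a median of 0.99. Over all genes 14.8% and 10.4% were higher and 9.43% and 9.22% lower in these 2 libraries. Most genes of the list were thus under the level filter in SMC, unlike Acan.

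The osteogenic list of 23 regulators and bone matrix genes also differed between modulated and other SMC, and more of its genes passed the level filter. In the Marfan library 10 of 13 tested were higher and 2 lower than in other SMC, with a median of 0.89 against -0.03 over all genes. Osteopontin (Spp1, 4.49) and osteoprotegerin (Tnfrsf11b, 3.12), both also among the markers that named the cluster, led with Dlx5 (2.67) and Bmp4 (2.32). Spp1 and Tnfrsf11b are part of this count and median, and their difference is not independent of the naming. The matricellular gene Postn (-1.39) and the Wnt inhibitor Sost (-0.78) were lower. Control gave 10 of 13 higher and 1 lower, and the library labelled Klf4-floxed 9 of 12 higher and 2 lower. The shares over all genes were 10.3%, 14.8% and 10.4% higher and 7.85%, 9.43% and 9.22% lower in Marfan, control and the library labelled Klf4-floxed. Between Marfan and control in the SMC class 6 of 12 were higher and none lower, led by Spp1 at 185 against 2.30 CPM. Spp1 was thus below the level filter in control and could pass only by being higher. There 3.55% of all genes were higher and 2.75% lower. In valve-like cells the Marfan library was higher than control for 5 of 17 and lower for 2, against 5.58% and 8.62% over all genes. The higher genes were led by the osteocalcin genes Bglap (418 against 1 UMI) and Bglap2 (419 against 8 UMIs), near-identical neighbours whose reads may be shared. Both were below the level filter in control, so they too could pass only by being higher. Bone sialoprotein, Ibsp (748 against 76 UMIs, 2.54), was also among the leading genes.

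Of 14 genes for phosphate handling and mineral inhibition, 5 of 11 tested were higher and 2 lower in modulated than in other SMC of the Marfan library. Among these were 2 textbook inhibitors of mineralisation, fetuin-A (Ahsg, 3.72) and matrix Gla protein (Mgp, 2.32, at 105269 against 21097 CPM), and the pyrophosphate transporter gene Ank (1.81). Mgp is also among the leading genes by which the modulated cluster was described, so its difference is not a separate result. Enpp2 (-1.47) and Entpd1 (-0.81) were lower. In valve-like against modulated SMC-like cells of Marfan 4 of 12 were higher, led by the ectonucleotidase Nt5e (25 against 1 UMI), and 4 lower. In that comparison 20.4% of all genes were higher and 9.66% lower. Of 16 chondrogenic regulators 10 were tested in modulated against other SMC of Marfan, where 10.3% of all genes were higher and 7.85% lower. The tendon factor Scx (0.91) alone was higher, and Ihh (-1.56) and Pth1r (-0.75) were lower.

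Across 41 sums of a class in a library, the members fell into few shared patterns, described here by Pearson's r of log2(CPM + 1). These sums share libraries and depth, and no significance is attached to r. The pairs most alike were Sox9 with Comp (0.83), Sox5 with Sox6 (0.83), Sox9 with Sox5 (0.77) and Comp with Chad (0.76). Alpl was least like the rest, from -0.31 with Acan to 0.33 with Cytl1. Acan reached 0.67 with Enpp1 and 0.55 with Sox6 but stood at 0.02 with Cytl1. Of 9832 genes searched, the nearest to Acan were Susd5 (0.90), Cspg4 (0.86) and Tcap (0.85), the nearest to Sox9 was Papss2 (0.905), and the nearest to Comp was Frzb (0.89). Chad was most like Clec3a (0.88), Cytl1 like Clec14a (0.89), Enpp1 like Cd63 (0.83), Alpl like Lbp (0.82) and Runx2 like Bri3bp (0.75).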

How the data were processed

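The authors deposited raw UMI counts per gene and cell barcode for 6 libraries (Cell Ranger 6.1.2 per the file headers, build mm10 per the submitters' processing notes). Cells with at least 1000 UMIs, 500 genes and at most 10% mitochondrial UMIs were kept, and doublets were removed with the Scrublet method in scanpy 1.11.5, by its automatic threshold in the Marfan lineage-negative library and otherwise as the top 0.8% of scores per 1000 cells. Clustering used 2000 variable genes without the members, 30 components, 15 neighbours and leidenalg 0.10.2 at resolution 1. Clusters were named from 19 marker sets, and a name needed at least 3 detected markers. Names were rebuilt here, since no deposited annotation was used.

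Counts were summed per class and library and scaled to CPM, with exact Poisson intervals for levels, exact conditional binomial intervals for ratios and Clopper-Pearson intervals for shares (scipy 1.17.1, numpy 2.4.6). Where 1 side had 0 UMIs the ratio used a floor of 3 UMIs. The calculation of ratios and intervals was tested on simulated data. With 1 library per group no test across samples exists, and a difference was counted at 1.5-fold with at least 5 CPM in the higher group.

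Members and lists were chosen with earlier results of these data known. Beside the members, the text names Klf4 and the reporter, up to 4 of the largest and 2 of the smallest ratios of each list, the genes most like a member over sums of at least 50 cells, and genes that lead a cluster. Of the members 8 had a promoter in the RefSeq table, 6 of them with a single start, of which the 4 that are no transcription factors were printed. Alternatives changed the filters on UMIs and mitochondrial share, doublet removal, clustering, scaling, level filter and fold.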

Additional observations from a re-analysis of the deposited data

How the results depend on the processing

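Of 656 alternative values of single members that were at least 1.5-fold apart, 641 kept their direction, and 15 of these came within 1.5-fold. Of the 656, 138 moved by more than 1.5 times and 408 lay within the counting interval of the reported value, and 151 of 158 alternative counts stayed within 1.5 times the reported count. For valve-like against modulated SMC-like cells in Marfan, control and the library labelled Klf4-floxed, a 5% mitochondrial limit turned Acan to -0.87, -0.43 and -0.86 and Runx2 to -0.42, -0.16 and -0.45. Resolution 2 turned Acan to -0.42, -0.15 and -1.39, and Runx2 to -0.33 and Enpp1 to -0.45 in the last of these libraries. A 5% limit left Cytl1 in control at 0.25. Under both settings further clusters were named valve-like. For Marfan against control in modulated SMC-like cells, Cytl1 turned to 1.33 and 0.82 with a minimum of 500 and 2000 UMIs, 0.56 with doublets kept and 0.54 at resolution 2, where the control cluster held 56 to 65 cells, and the cause was not tested. The count of members at least 1.5-fold apart became 7 without a minimum level (Marfan against control, SMC class). Comparing the Klf4-floxed-labelled library with Marfan, it became 4 with each cell counted alike and 1 at 2-fold in the SMC class, 1 at 2-fold in modulated cells and 5 at resolution 2 in valve-like cells. For Marfan against control it became 3 at 2-fold in modulated cells and 1 in valve-like cells. Resolution 0.5 gave no modulated SMC-like cluster and was not run for the comparisons that need one. Median-of-ratios scaling moved the median of all genes in the Marfan valve-like comparison from 0.16 to 0.00.

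No paired analysis was possible because each group has 1 library. Depth limits the values that rest on few UMIs, Chad in modulated SMC-like cells and Alpl in valve-like cells, and the small control modulated cluster.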
